A study of Mus musculus with 311 samples.

Results

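The cell division genes Birc5, Cdc20, Top2a, Mki67 and Bub1 were followed across 311 mouse livers. They were found by gene symbol among the probes of the array, which gave 8 of 23388 probes (5 of 11610 named genes). Birc5, Bub1 and Mki67 had 1 probe each, Top2a had 2 and Cdc20 had 3. All 8 were measured on at least 95% of the arrays, the minimum set for any probe (22863 probes passed it).

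The livers came from F2 offspring of a cross between C57BL/6J and C3H/HeJ, which are inbred strains. Both strains carried an ApoE null background, so every animal lacked apolipoprotein E, which clears lipoprotein remnants from the blood, and no animal with a working gene was measured. Females and males were fed a high-fat Western-type diet between 8 and 24 weeks of age. The RNA of 1 liver, in Cy3, was hybridised on an array against a pool made from equal portions of all the samples, in Cy5. The arrays formed 1 group, and the F2 number (2 to 359) was the label by which they differed. Each animal had 1 array, so p-values measure the spread between animals with the spread of the method included, and the number of arrays limits the precision.

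A value is the log10 of an animal's signal over the pool's, and no deposited value lay outside -2 to 2. On this scale 0.3 is close to a doubling. The base and the direction were derived from the values (given with the processing). A ratio to a pool has no level, so it does not show whether a gene was high or low in liver, genes cannot be ranked by expression, and the liver identity of the samples could not be checked against hepatocyte genes. Correlations between probes do not depend on the direction of the ratio.

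Animals were also read in 2 sets, cut at -0.5 on the probe of Eif2s3y, a Y-linked gene for a subunit of a translation initiation factor. The 155 animals above the split lay between -0.219 and 0.527 on that probe, and the 156 below it between -1.76 and -0.875, so no animal lay near the cut. Because the cut was made on a measured value, the sets are given side by side and no difference between them was tested.

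The 5 genes act at successive steps of chromosome duplication and segregation. Top2a codes for topoisomerase II alpha, which untangles sister DNA molecules, and Mki67 for the Ki-67 protein, which coats mitotic chromosomes and is the usual marker of cycling cells. Birc5 (survivin) belongs to the chromosomal passenger complex that corrects faulty attachments to the spindle, Bub1 is a kinase of the spindle checkpoint, and Cdc20 activates the ubiquitin ligase APC/C that starts anaphase once the checkpoint is satisfied. Adult hepatocytes divide rarely, and macrophages, stellate cells and other cells of the liver can divide as well. In bulk tissue, more dividing cells and more of a transcript per dividing cell cannot be told apart.

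Many genes of late cell division carry in their promoters a short element called CHR (TTTGAA or TTCGAA), often near CCAAT boxes, the site of the factor NF-Y. The RefSeq promoters of Birc5, Cdc20, Top2a and Bub1 (250 bases before to 50 after the annotated start, assembly GRCm38.p6, 5′ to 3′ on the gene's strand) are shown because the first 3 varied together in these livers while Bub1 ran against them. Capitals mark the CHR letters and the CCAAT letters on either strand, and on the other strand TTTGAA is read as TTCAAA and the CCAAT letters as ATTGG. The windows lie at chr11:117848987-117849286 (Birc5, + strand), chr4:118437294-118437593 (Cdc20, - strand), chr11:99024140-99024439 (Top2a, - strand) and chr2:127831810-127832109 (Bub1, - strand).
Birc5: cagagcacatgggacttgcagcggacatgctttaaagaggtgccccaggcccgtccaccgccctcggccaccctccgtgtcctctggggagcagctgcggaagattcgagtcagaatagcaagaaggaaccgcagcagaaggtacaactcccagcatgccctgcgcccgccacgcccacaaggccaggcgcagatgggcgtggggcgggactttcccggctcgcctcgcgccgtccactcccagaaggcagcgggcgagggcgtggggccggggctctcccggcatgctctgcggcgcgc
Cdc20: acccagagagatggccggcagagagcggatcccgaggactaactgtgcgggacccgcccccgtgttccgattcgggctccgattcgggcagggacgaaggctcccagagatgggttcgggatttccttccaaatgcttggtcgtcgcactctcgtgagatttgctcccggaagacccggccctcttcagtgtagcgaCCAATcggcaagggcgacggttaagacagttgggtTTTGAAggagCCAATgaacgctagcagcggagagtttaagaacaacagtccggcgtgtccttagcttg
Top2a: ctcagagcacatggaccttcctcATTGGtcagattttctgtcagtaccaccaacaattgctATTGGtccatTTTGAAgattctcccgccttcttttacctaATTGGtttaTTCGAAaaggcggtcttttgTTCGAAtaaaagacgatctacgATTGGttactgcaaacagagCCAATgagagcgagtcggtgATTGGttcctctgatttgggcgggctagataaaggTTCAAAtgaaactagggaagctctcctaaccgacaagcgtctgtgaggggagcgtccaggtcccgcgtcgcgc
Bub1: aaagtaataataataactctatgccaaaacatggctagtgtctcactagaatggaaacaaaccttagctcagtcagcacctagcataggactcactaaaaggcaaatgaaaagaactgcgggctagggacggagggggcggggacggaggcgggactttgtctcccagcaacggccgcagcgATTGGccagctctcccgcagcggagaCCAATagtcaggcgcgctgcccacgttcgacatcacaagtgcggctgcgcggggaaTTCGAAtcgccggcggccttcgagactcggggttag

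Birc5 had none of these letters in its window. Cdc20 had 1 TTTGAA, starting 18 bases before the start, and 2 CCAAT. Top2a had 2 TTTGAA, 2 TTCGAA and 6 CCAAT, with the TTTGAA closest to the start at -23. Bub1 had 1 TTCGAA, at 15 bases after the start, and 2 CCAAT, and Mki67, on chromosome 7, had 2 TTTGAA and 3 CCAAT. No matches overlapped, and a match is a run of letters, not a bound site. Whether genes that varied with the members shared these letters is given after the correlations.

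The leading probe of a gene, the one with fewest missing values or, at a tie, the first in the file, is used below where a gene has several. The leading probes of Birc5, Cdc20 and Top2a differed most between animals, and those of Mki67 and Bub1 differed least. Birc5 ranged from a log10 ratio of -0.458 through a median of -0.0245 to 0.353 (n = 302), which is 0.349-fold to 2.25-fold of the pool. Cdc20 ranged from -0.708 through -0.0135 to 0.388 (n = 311), or 0.196-fold to 2.44-fold. Top2a ranged from -0.40 through -0.0167 to 0.339 (n = 311), or 0.398-fold to 2.18-fold. In these 3 genes the values filled their range without separate groups. Mki67 lay between -0.163 and 0.397 with a median of 0.00867 (n = 304), and its highest value came from a single animal at 2.49-fold of the pool. Bub1 lay between -0.135 and 0.191 with a median of -0.00460 (n = 311), or 0.732-fold to 1.55-fold.

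The sets overlapped for every gene. Cdc20 ranged from -0.520 through 0.0367 to 0.388 in animals above the split and from -0.708 through -0.0588 to 0.375 in those below it. Bub1 ranged from -0.0989 through 0.0133 to 0.191 above and from -0.135 through -0.0131 to 0.147 below. Top2a ran the other way, with medians of -0.0376 above and 0.0191 below. Birc5 had medians of -0.0343 above and -0.0188 below, and Mki67 of 0.00682 and 0.0107.

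**Figure D1:**
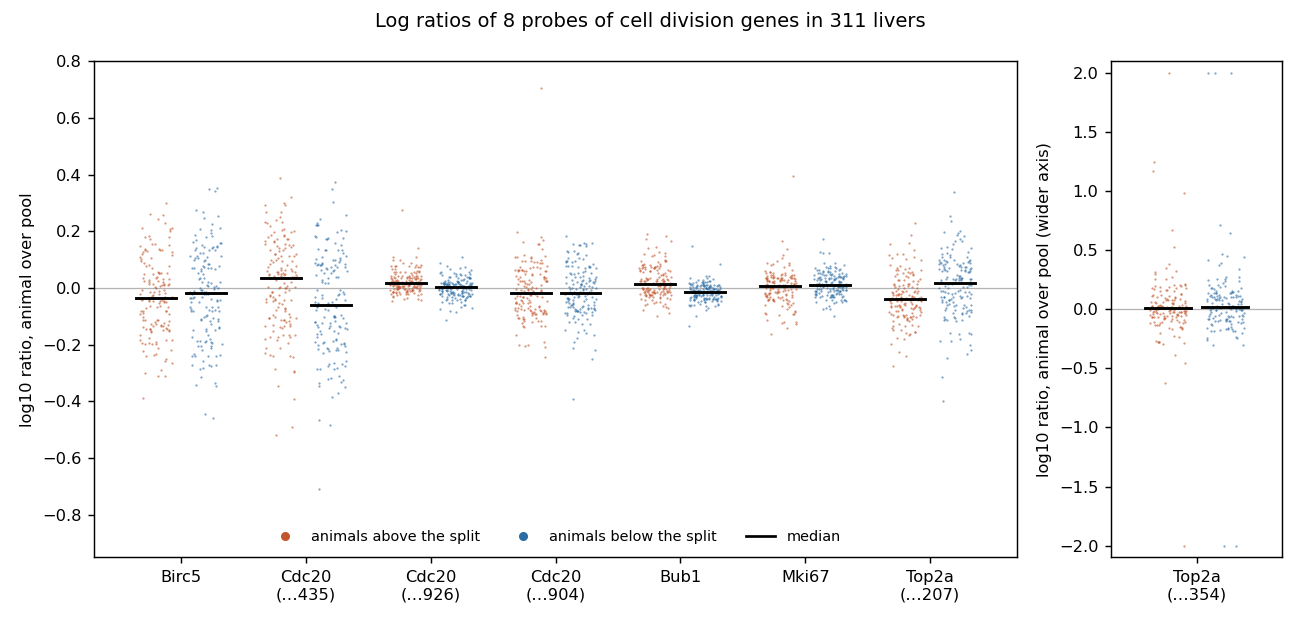
Log10 ratio of animal over pool (vertical axis) for the 8 probes, 1 point per animal, with the 155 animals above the split left of the 156 below it and a bar at each median. The last 3 digits of the probe are given where a gene has several, and the second Top2a probe has its own, wider axis because 7 of its values lie at the limits of -2 and 2.

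The SD of a probe over animals gives the same order. The SD of Cdc20 was 0.174, 2.63 times the median SD of all kept probes (0.0663, or 1.16-fold) and larger than that of 94.9% of them. Birc5 had 2.27 times the median SD (92.5% of probes were below it) and Top2a 1.5 times (79.3%). Mki67 (0.812 times, 30.3%) and Bub1 (0.729 times, 20.9%) varied less than the median probe. An SD from this number of animals has a 95% half-width of 0.207 multiples for Cdc20 and 0.0574 for Bub1. By the median absolute deviation the order was the same, but the multiples were 3.11 for Cdc20, 2.80 for Birc5 and 1.63 for Top2a. They were 0.775 for Mki67 and 0.621 for Bub1. For all but Mki67 the shift exceeded the half-width.

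Probes of the same gene agreed only in part. The 3 Cdc20 probes differed in spread: the leading probe, 10024401435, had 2.63 times the median SD, probe 10024413904 had 1.46 times and probe 10024409926 had 0.585 times, less than all but 6.83% of probes. The leading probe had r = 0.530 with 10024413904 (95% interval 0.445 to 0.605, n = 311) and r = 0.312 with 10024409926 (0.208 to 0.409, n = 310), while the other two had r = 0.220 with each other. Those other probes were annotated to the same transcript record, and the leading probe to a different one. The permutation p was 1e-05, the smallest that 100000 resamples can give, for the first 2 pairs and 0.00043 for the third, with limma adjusted p between 4.77e-22 and 0.000784. The 3 pairs had r = 0.488, 0.130 and 0.107 in animals above the split and 0.595, 0.420 and 0.377 in animals below it. Above the split, the pairs with 10024409926 did not pass (limma adjusted p = 0.206 and 0.404).

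The Top2a probes were unrelated. Their r was 0.0215 (95% interval -0.0907 to 0.133, n = 307, permutation p = 0.708, limma adjusted p = 0.779), with 0.0985 above the split and -0.0354 below it. The second Top2a probe, 10024416354, had 5.44 times the median SD, but only 2.43 times by the median absolute deviation, and 7 values lay at the limits, 4 high and 3 low. Its linear ratios averaged 2.55 (SD 11.3, n = 307) where a pool of all samples requires an average near 1, and the other 7 member probes averaged between 0.995 and 1.03. Both Top2a probes were annotated to the same transcript record. For these reasons statements on Top2a below concern the leading probe unless the other is named.

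Birc5, Cdc20 and Top2a varied together tightly. Animals high in one tended to be high in the others: the liver with the highest Birc5 (F2 number 42, 2.25-fold of the pool) had 2.24-fold Cdc20 and the highest Top2a (2.18-fold), and the liver with the lowest Cdc20 (F2 number 112, 0.196-fold) had 0.360-fold Birc5 and the lowest Top2a (0.398-fold). Birc5 and Cdc20 had r = 0.886 (95% interval 0.859 to 0.908, n = 302), with r = 0.897 in animals above the split and 0.912 in those below it. Birc5 and Top2a had r = 0.795 (0.749 to 0.833, n = 302), with 0.813 above and 0.811 below. Cdc20 and Top2a had r = 0.655 (0.587 to 0.714, n = 311), with 0.728 above and 0.731 below. These values hold for the leading Cdc20 probe. With Cdc20 probe 10024413904, r was 0.546 for Birc5 and 0.552 for Top2a. With probe 10024409926 it was 0.258 for Birc5 (0.0972 above the split, adjusted p = 0.370, and 0.446 below it) and 0.229 for Top2a (0.210 above, adjusted p = 0.0557, and 0.405 below). With the leading probes, all 3 pairs had a permutation p of 1e-05 for r and for Spearman's rho (0.885, 0.789 and 0.636), the smallest the resamples can give, and limma adjusted p of 2.76e-99, 2.14e-64 and 3.83e-37. With the 2 most extreme animals of the first gene left out, r was 0.881, 0.787 and 0.629. In all, 28 pairs of member probes were computed, 10 of leading probes, 4 of probes of 1 gene and 14 others, over all arrays and on each side of the split, and the adjusted p is over all 22862 other probes.

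**Figure D2:**
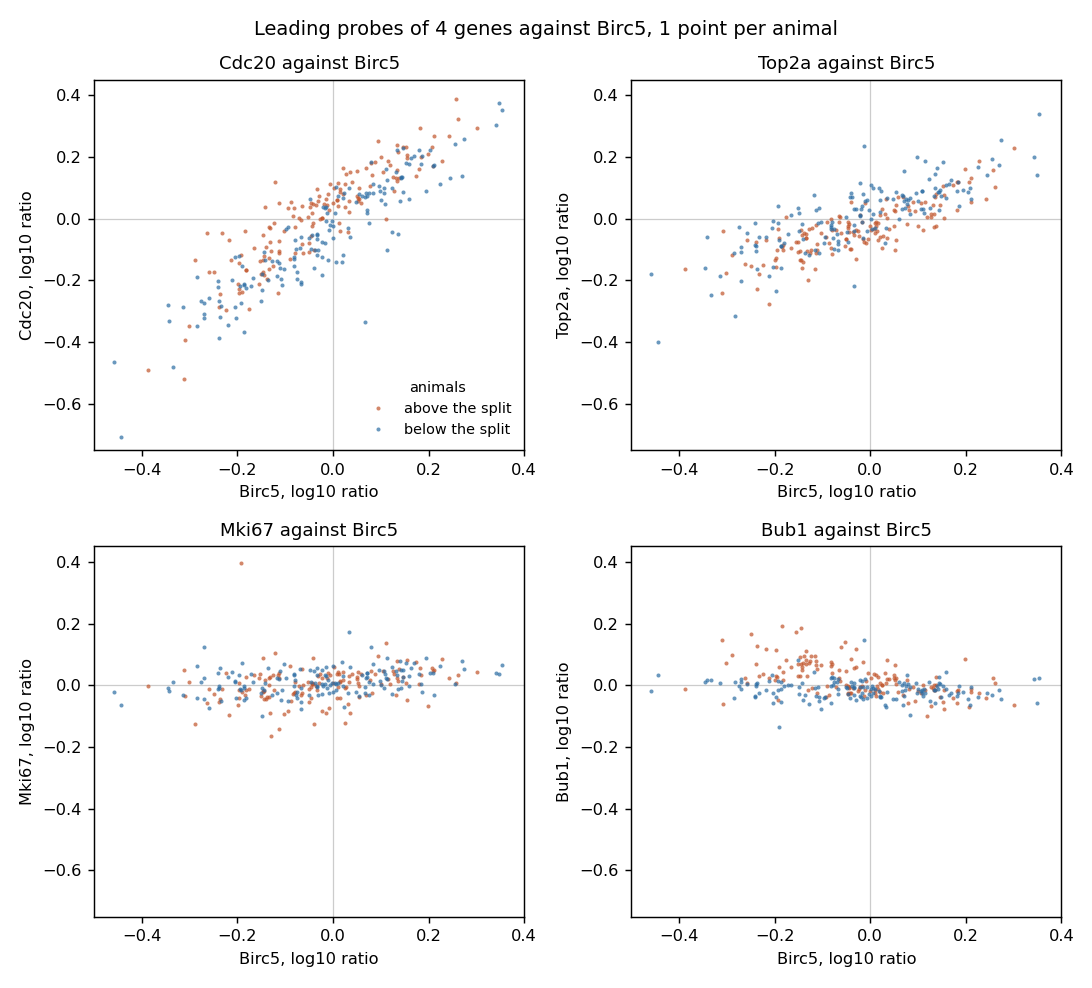
Log10 ratios of Cdc20, Top2a, Mki67 and Bub1 (vertical axes, leading probes) against Birc5 (horizontal axes), 1 point per animal, on the same axes in each panel. Cdc20 (r = 0.886) and Top2a (r = 0.795) climb with Birc5, Mki67 climbs little (r = 0.276), and Bub1 slopes down among animals above the split (r = -0.537).

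The tie was present in both ranges of F2 number, the label that differed between arrays. Birc5 and Cdc20 had r = 0.903 up to the median number of 186 and 0.873 above it. Birc5 with Top2a had 0.810 and 0.776, and Cdc20 with Top2a 0.701 and 0.611. The median log ratio of an array went with the 3 genes, at r = -0.307 for Birc5 (rho -0.328), -0.362 for Cdc20 (rho -0.367) and -0.373 for Top2a (rho -0.346), each with a permutation p of 1e-05, and with the 2 most extreme arrays left out r was -0.307, -0.356 and -0.317. Bub1 went the other way, with r = 0.224 above the split (rho 0.312, permutation p = 0.0051 and 5e-05) and 0.103 below it (rho 0.367, p = 0.195 and 1e-05), and r was 0.306 and 0.367 with the 2 most extreme arrays of each side left out. With every array centred on its median, the 3 pairs had r = 0.888, 0.799 and 0.663, and Bub1, with the side of the split as a covariate, had -0.330 with Birc5, -0.337 with Cdc20 and -0.239 with Top2a.

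Mki67 went with these genes only weakly. Its r was 0.276 with Birc5 (95% interval 0.167 to 0.378, n = 295, permutation p = 1e-05, limma adjusted p = 1.25e-05), 0.233 with Cdc20 (0.124 to 0.337, n = 304, adjusted p = 0.000199) and 0.246 with Top2a (0.137 to 0.349, n = 304, adjusted p = 0.00051). None reached the r of 0.3 used below for a call. By rank the relations were closer, with rho = 0.361, 0.323 and 0.332. In animals above the split r was 0.239, 0.177 and 0.244, of which the one with Cdc20 missed the threshold (adjusted p = 0.0701). In animals below it r was 0.340, 0.385 and 0.244, of which the one with Top2a missed it (adjusted p = 0.101). Both misses concern the adjusted p, which depends on the gene that the probes were regressed on. That gene was Cdc20 in the miss above the split and Mki67 in that below it. Permutation tests, without adjustment over probes, gave p = 0.0310 for Cdc20 above the split (rho 0.326, p = 6e-05). For Top2a below the split they gave p = 0.00257 (rho 0.291, p = 0.00019). Mki67 and Top2a had r = 0.129 in the animals with F2 numbers above the median (adjusted p = 0.407) and 0.336 in the others.

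A single liver set some of the values of Mki67. The animal with F2 number 32 had the highest Mki67 (2.49-fold of the pool), also the highest value of Cdc20 probe 10024409926 (1.88-fold), but 0.641-fold Birc5 and 0.929-fold Top2a. The r between Mki67 and that Cdc20 probe was 0.179 (n = 304) with it and 0.0193 once the 2 most extreme animals of the Cdc20 probe were left out.

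Bub1 ran against the other genes. Over all arrays its values fell into 2 groups by a mixture of 2 normal curves, 47 animals between 0.0512 and 0.191 and 264 between -0.135 and 0.0482. Of the 47 in the higher group 45 lay above the split and 2 below it, and of the 264 in the lower group 110 lay above and 154 below. On neither side alone did the mixture find separate groups: above the split it was no better than 1 normal curve (BIC margin -2.57), and below it the 2 curves had nearly the same centre (Ashman's D 0.0647). No pooled r is therefore given for Bub1: its r over all arrays was taken with the side of the split as a covariate. So taken, it was -0.354 with Birc5 (n = 302, limma adjusted p = 2.26e-09), -0.366 with Cdc20 (n = 311, 2.79e-10), -0.271 with Top2a (n = 311, 6.35e-06) and -0.223 with Mki67 (n = 304, 0.000369). In animals above the split the r was -0.537 with Birc5 (95% interval -0.642 to -0.412, n = 150), -0.525 with Cdc20 (-0.631 to -0.401, n = 155), -0.496 with Top2a (-0.606 to -0.367, n = 155) and -0.257 with Mki67 (-0.40 to -0.10, n = 150). The first 3 had a permutation p of 1e-05 and Mki67 had 0.00156. In animals below it, where Bub1 spread less (SD 0.0314, against 0.0553 above it), r was -0.142, -0.173, -0.0266 and -0.138, and none passed (limma adjusted p between 0.117 and 0.843). The permutation p of these, not adjusted over probes, was 0.0808, 0.0308, 0.741 and 0.0863. By rank, rho below the split was -0.184 with Birc5 (permutation p = 0.0239) and -0.210 with Cdc20 (0.00852). It was -0.120 with Top2a (0.135) and -0.0817 with Mki67 (0.314). Within the lower of the 2 groups r was -0.211 with Birc5, -0.194 with Cdc20 and -0.249 with Top2a (permutation p = 0.00079, 0.00138 and 4e-05), and within the higher group of 47 it was -0.232, -0.163 and -0.102 (p between 0.119 and 0.489). These groups were cut on Bub1's own values, which narrows its range within each. Their r also pools both sides of the split without the covariate.

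**Figure D3:**
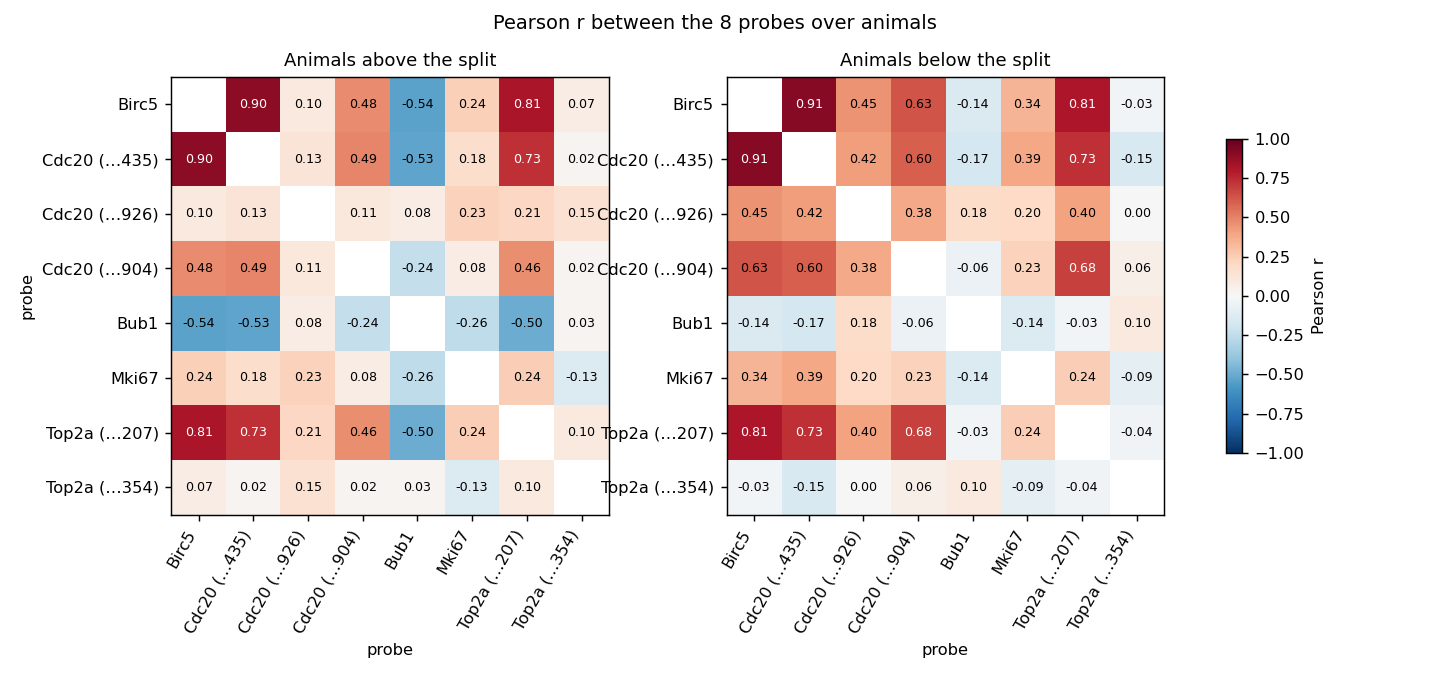
Pearson r between the 8 probes over animals above the split (left) and below it (right), with red for positive and blue for negative. The cells that pair Birc5, the leading Cdc20 probe and the leading Top2a probe are dark red on both sides of the split (r between 0.73 and 0.91). The second Top2a probe is pale throughout, and the blue in the row of Bub1 is deepest above the split.

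To see which other transcripts varied with each member, every kept probe was regressed on the member probe with limma, and a probe was called at an adjusted p under 0.05 with an r of at least 0.3 in size. Birc5 called 1320 of 22862 probes in the positive direction (5.77%) and 889 in the negative (3.89%). Cdc20 called 1520 (6.65%) and 1152 (5.04%), and Top2a 1467 (6.42%) and 1386 (6.06%). Mki67 called 157 (0.687%) and 20 (0.0875%). With the side of the split as a covariate, Bub1 called 1836 (8.03%) and 1512 (6.61%). In animals above the split the shares called positive and negative were 9.73% and 11.7% for Birc5, 10.0% and 11.1% for Cdc20, 9.16% and 11.0% for Top2a, 2.05% and 0.888% for Mki67, and 12.1% and 9.99% for Bub1. In animals below it they were 4.68% and 3.35% for Birc5, 5.4% and 4.18% for Cdc20, 6.27% and 6.24% for Top2a, 0.416% and 0.184% for Mki67, and 5.36% and 3.25% for Bub1. The further probes called fewer in the positive direction over all arrays, above and below the split: 2.08%, 2.99% and 3.72% for Cdc20 probe 10024413904, 1.29%, 3.04% and 1.11% for Cdc20 probe 10024409926, and 0.534%, 0.844% and 1.08% for Top2a probe 10024416354. Against these shares, Birc5 called 3 of the 7 other member probes positive and 1, Bub1, negative above the split, and 5 of 7 positive below it.

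The called sets of Birc5, Cdc20 and Top2a overlapped, most between Birc5 and each of the others. Of the probes called positive over all arrays, members' own probes left out, Birc5 and Cdc20 shared 951, which is 72.2% of those of Birc5 and 62.7% of those of Cdc20. Birc5 and Top2a shared 995 (75.6% and 68.0%), and Cdc20 and Top2a 679 (44.8% and 46.4%). Of all probes, Birc5, Cdc20 and Top2a called 5.77%, 6.65% and 6.42% positive. The overlaps of negative calls were smaller: 64.6% and 49.8% for Birc5 and Cdc20, 67.3% and 43.2% for Birc5 and Top2a. For Cdc20 and Top2a they were 28.9% and 24.0%. Of all probes, 3.89%, 5.04% and 6.06% were called negative. On each side of the split alone, Cdc20 and Top2a overlapped more. Their positive calls shared 71.2% and 77.9% above it (10.0% and 9.16% of all probes) and 61.6% and 53.0% below it (5.4% and 6.27%). Their negative calls shared 70.8% and 71.6% above it (11.1% and 11.0%) and 54.9% and 36.8% below it (4.18% and 6.24%). Such overlaps follow in part from the r between the members themselves. No probe was called in opposite directions by Birc5 and Cdc20 or by Birc5 and Top2a. The r of 0.886 and 0.795 between these members leaves little or no room for such calls, so this is no separate result. With Mki67 Birc5 shared 13 positive probes over all arrays (0.987% of its own, 8.28% of those of Mki67), and in animals below the split 66 (6.20% and 71.0%). Of all probes, Mki67 and Birc5 called 0.687% and 5.77% positive over all arrays, and 0.416% and 4.68% below the split. The overlap over all arrays was thus near the share of all probes.

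The genes at the top of the 3 lists were those of the late cell cycle. Here and below, genes are ranked among probes that name 1 gene, with the probes of the 5 members left out. Birc5 had its highest r with Nuf2, of the Ndc80 complex that binds kinetochores to microtubules (r = 0.929, n = 302, limma adjusted p = 4.05e-128), and with Racgap1, which drives cytokinesis (r = 0.929). Next came Ccna2, cyclin A2 (0.925), Knstrn, a spindle protein (0.922), and Ccnb2, cyclin B2 (0.916). Cdc20 had Ccnb2 (r = 0.911, n = 311, adjusted p = 1.68e-117), Knstrn (0.907), Nuf2 (0.892), Ccna2 (0.890) and Cdca8, the partner of Birc5 in the chromosomal passenger complex (0.885). Top2a had Racgap1 (r = 0.814, n = 311, adjusted p = 3.65e-71), Ndc80 (0.805), Anln, anillin of the cleavage furrow (0.794), Plk1, a mitotic kinase (0.793), and Nuf2 (0.790). All 15 passed on both sides of the split, where r lay between 0.740 and 0.944 above the split and between 0.804 and 0.931 below it.

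The genes at the other end were of a different kind. Birc5 had its lowest r with Olig2, a transcription factor best known in glia (r = -0.585, adjusted p = 6.58e-27), BC024139 (-0.575) and Ahcy, which hydrolyses S-adenosylhomocysteine (-0.561). Cdc20 had BC024139 (r = -0.682, adjusted p = 1.81e-41), Pxmp2, a peroxisomal membrane protein (-0.662), and Fetub, fetuin B, secreted by the liver (-0.622). Top2a had Lrcol1 (-0.556, adjusted p = 2.62e-24), the homeobox gene Msx2 (-0.533) and Tfr2, a receptor with which hepatocytes sense iron (-0.532). Below the split Cyp2c40, a cytochrome P450, joined those of Birc5 (r = -0.594 there, and -0.579 above).

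Mki67 kept other company over all arrays. Among named genes its highest r was with Gtf2b, the general transcription factor TFIIB (r = 0.523, n = 301, adjusted p = 1.79e-18), then Tdgf1 (0.498), the olfactory receptors Olfr1423 (0.474) and Olfr1250 (0.471), and Dock2, an activator of Rac in leukocytes (0.468). None of the 5 was called with Birc5, Cdc20 or Top2a over all arrays. With the 2 most extreme animals of Mki67 left out, the 5 had r = 0.366, 0.388, 0.297, 0.326 and 0.407. In animals above the split Gtf2b had r = 0.660, and in those below it 0.252 (adjusted p = 0.0894). The lowest r over all arrays were those of Speer3 (-0.388), the homeobox gene Nkx1-2 (-0.351) and Sult5a1 (-0.340). Below the split the first genes were Rad54l, of recombination repair (r = 0.445, n = 152, adjusted p = 0.000203), Pimreg (0.398), Racgap1 (0.397), a probe the platform names ZWILCH (0.394) and Tacc3, a spindle protein (0.392).

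The genes closest to Bub1 were others than those of Birc5, Cdc20 and Top2a. In animals above the split its highest r was with the transcription factor Foxl1 (r = 0.855, n = 155, adjusted p = 2.23e-41), followed by Thrb, a thyroid hormone receptor (0.852), Klhdc7a (0.845), Sox15 (0.839) and the claudin Cldn9 (0.839). Below the split these 5 had r = 0.353, 0.471, 0.362, 0.2998 and 0.403, and all but Sox15 were called there too. Its lowest was with Prkx, an X-linked kinase (-0.722), Ubd, a ubiquitin-like modifier (-0.703), and Acot9, a mitochondrial acyl-CoA thioesterase (-0.697). These last genes went with Birc5 in the same animals, at r = 0.614 for Prkx, 0.706 for Ubd and 0.686 for Acot9, while Foxl1 had r = -0.547 with Birc5. In animals below the split the highest among named genes were Rin1 (0.633), Tagln3 (0.628), Prh1 (0.612), Ruvbl2, an ATPase of chromatin complexes (0.605), and Olfr482 (0.578). Of these, 4 were also called above the split, with r = 0.465 for Rin1, 0.439 for Prh1, 0.836 for Ruvbl2 and 0.422 for Olfr482, and Tagln3 was not (0.0790). The lowest below the split were Dusp5 (-0.549), Numbl (-0.541) and Fads3 (-0.540), and they had r = -0.547, -0.666 and -0.603 above it. Above the split, 1787 of the 2222 probes that Birc5 called positive (80.4%) were called negative by Bub1 and 0 were called positive by both. Of all probes there, Bub1 called 9.99% negative and 12.1% positive. Below it, 165 of 1064 (15.5%) were called in opposite directions, where Bub1 called 3.25% of all probes negative. Opposed calls above the split follow in part from the r of -0.537 between Birc5 and Bub1, so they are no separate result.

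The members' own chromosomes held about the share of called probes that they held of all probes. Of the probes with a known chromosome called with Birc5, 8.49% lay on its chromosome 11, against 8.35% of all such probes. For Cdc20 on chromosome 4 the shares were 5.47% and 5.84%, for Top2a on chromosome 11 9.05% and 8.35%, for Mki67 on chromosome 7 8.33% and 8.15%, and for Bub1 on chromosome 2, above the split, 7.09% and 8.00%.

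In all, 10 lists of cell cycle genes, 112 genes besides the members with 87 measured, were read by stage. With Birc5, 49 of 87 genes were called positive and 0 negative over all arrays, and likewise 49 above the split and 49 below it, where 5.77%, 9.73% and 4.68% of all probes were called positive. The genes had a median r of 0.345 over all arrays against -0.0321 for all probes. Cdc20 had 44 positive and 2 negative (6.65% and 5.04% of all probes, median r 0.327 against -0.0404) and Top2a 43 and 0 (6.42% and 6.06%, median 0.292 against -0.0264). Mki67 had 4 positive over all arrays (0.687% of all probes, median 0.153), with 3 above the split (2.05% of all probes were called positive there) and 19 below it (0.416%). Bub1 had 1 positive and 39 negative above the split, where 12.1% and 9.99% of all probes were called (median -0.267, against 0.00605 for all probes). Below it Bub1 had 2 positive and 3 negative, where 5.36% and 3.25% were (median -0.0936). The negative calls of Bub1 above the split follow in part from its r of -0.537 with Birc5 there. The second Top2a probe had a median of -0.00912 over all arrays, and 1 gene was called with it below the split. Of the further Cdc20 probes, 10024413904 had 37 positive genes and 10024409926 had 7, this last probe with 2 above the split and 35 below it.

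Genes of the mitotic machinery were mostly called. With Birc5, 12 of 15 measured kinetochore and spindle genes passed in the positive direction (median r 0.748), as did 5.77% of all probes, led by Racgap1 and Nuf2, and Kif20a, a mitotic kinesin, did not (r = -0.0302, adjusted p = 0.715). Of 10 mitotic cyclins and kinases 8 passed (median 0.701), with Cdc25c, a phosphatase that activates Cdk1, at r = -0.0870. Of 5 spindle checkpoint genes, Bub1 aside, 3 passed, among them Ttk, the checkpoint kinase Mps1 (r = 0.787), and Mad2l1 (0.678). Zw10, which recruits checkpoint proteins to kinetochores, had r = -0.0272. Cdca8 had r = 0.867 with Birc5 and Incenp, another partner in the complex, r = 0.292 (adjusted p = 2.69e-06), just short of the call.

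The list of DNA replication had 14 of 19 genes called with Birc5 (median r 0.469), again against 5.77% of all probes, led by Mcm6, of the replicative helicase (0.686), and Rrm1, of ribonucleotide reductase (0.678). Tk1, thymidine kinase, had r = -0.109 with Birc5 and was called negative with Cdc20 (r = -0.351). Chromosome structure had 4 of 6, led by Stmn1, a microtubule regulator (0.777), and Smc2, a condensin subunit (0.641). Of 5 APC/C genes 1 passed, Anapc5 (r = 0.314), and with Cdc20, their co-activator, the 5 had r between -0.190 and 0.139, short of a call. Among regulators of entry into the cycle, against 5.77% of all probes, 2 of 8 G1 cyclin genes (Ccnd1, cyclin D1, 0.388, and Ccnd2, 0.307), 2 of 7 transcription factors (E2f1, 0.509, and Lin9, 0.302) and 2 of 10 inhibitors (Rbl1, 0.575, and Cdkn2d, 0.329) passed. Mybl2, which acts with the CHR-binding complex, had r = -0.128 with Birc5.

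**Figure D4:**
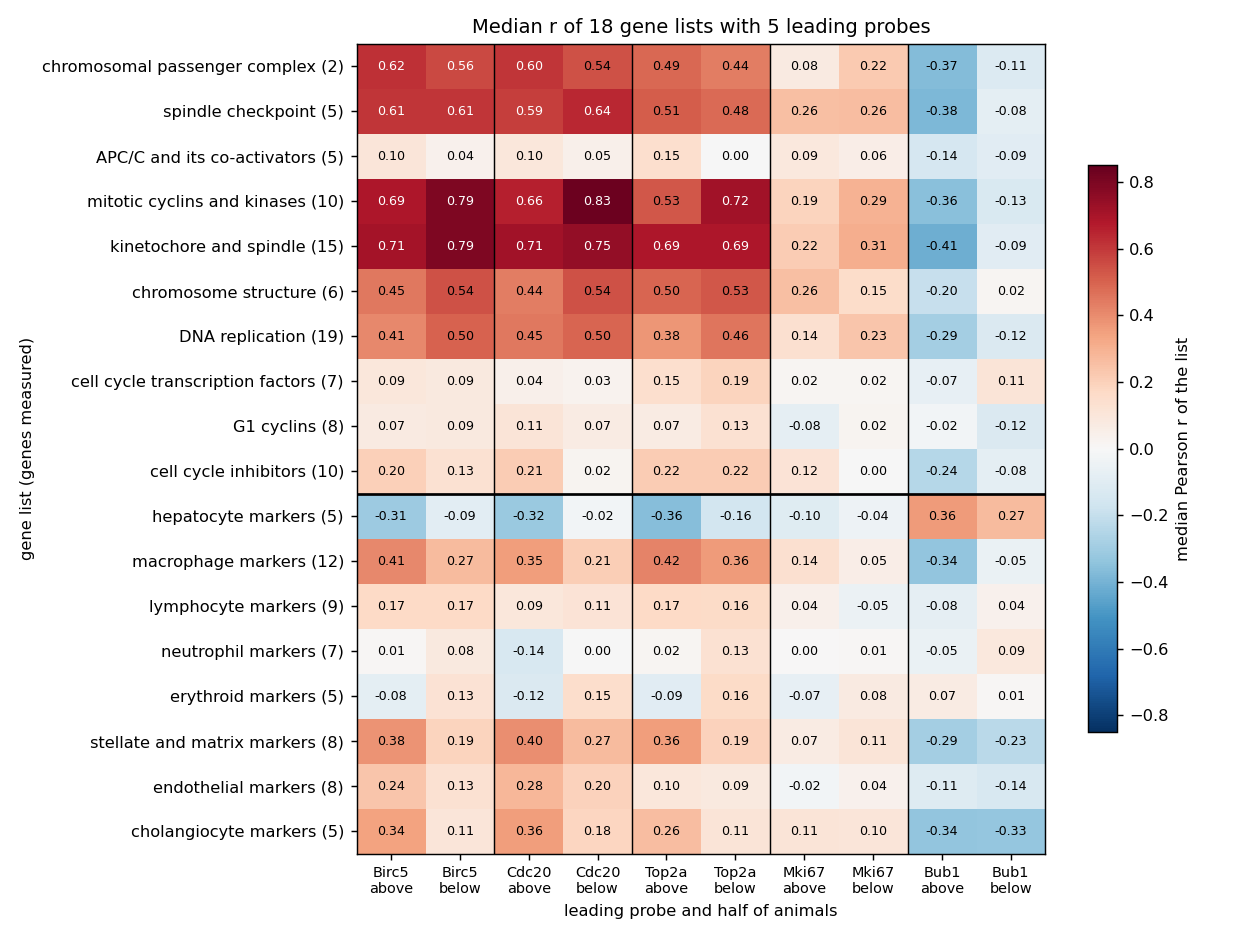
Median Pearson r of each gene list (rows, with the number of measured genes) with the 5 leading probes in animals above and below the split (columns). The rows of kinetochore, cyclin and checkpoint genes are red for Birc5, Cdc20 and Top2a on both sides of the split, pale red for Mki67, and blue for Bub1 above the split.

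**Figure D5:**
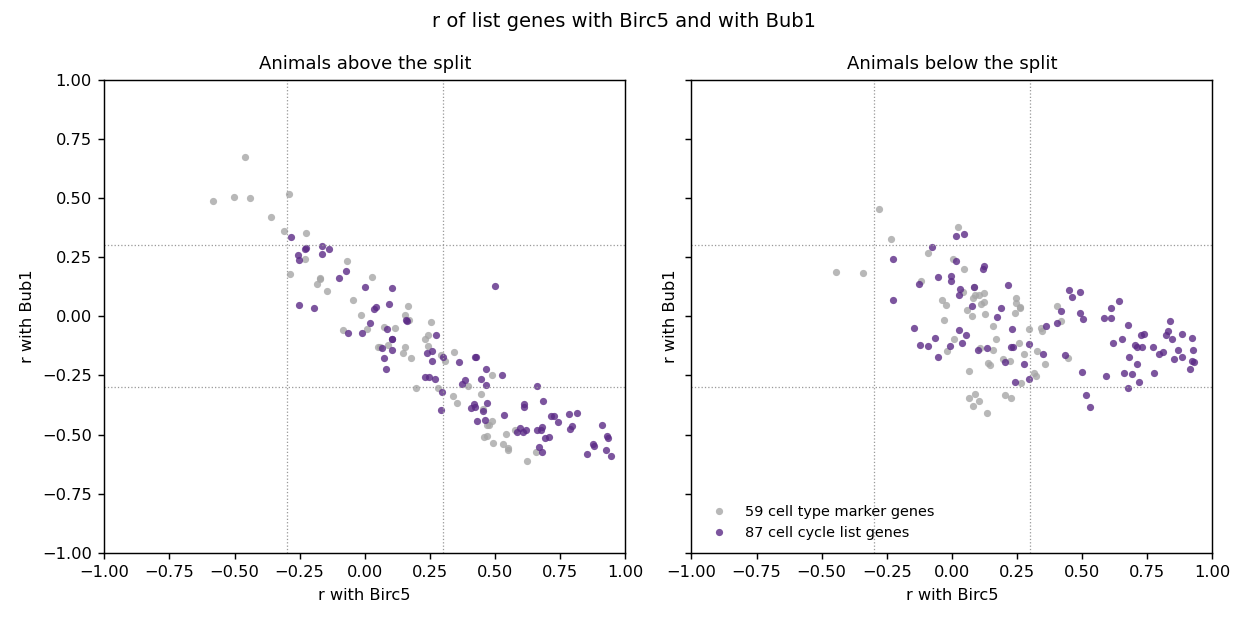
For each list gene, its r with Birc5 (horizontal axis) and with Bub1 (vertical axis) in animals above the split (left) and below it (right), with dotted lines at an r of 0.3 in either direction. Above the split the cell cycle genes of high r with Birc5 lie low on Bub1, where 39 of 87 were called negative, and below it they lie near 0 on Bub1, where 3 were.

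Some markers of cell types in the liver moved with these genes too, and the lists differed. Of 59 measured marker genes over all lists, Birc5 called 13 positive and 3 negative over all arrays. Cdc20 called 10 and 4, and Top2a 16 and 2. Of all probes they called 5.77%, 6.65% and 6.42% positive and 3.89%, 5.04% and 6.06% negative. The bile duct markers are part of these totals and are not described further. Of 12 macrophage genes Birc5 called 7 positive, Cdc20 1 and Top2a 8 over all arrays, with median r of 0.308, 0.132 and 0.421, where 5.77%, 6.65% and 6.42% of all probes were called positive. The list was led by Ctss, cathepsin S (r = 0.465 with Birc5 and 0.556 with Top2a), and Cd14 (0.440 and 0.493), while Marco did not pass (-0.0674 and 0.0458). Of 8 stellate and matrix genes they called 3, 5 and 3, where 5.77%, 6.65% and 6.42% of all probes were called positive. The collagen crosslinker Lox (r = 0.449 with Birc5) and the proteoglycan Lum (0.450) led this list. Of 5 measured hepatocyte genes of 10, 1, 2 and 1 were called negative (3.89%, 5.04% and 6.06% of all probes were), with Tat, tyrosine aminotransferase, at r = -0.359 with Cdc20. Among 9 lymphocyte genes Ptprc, the leukocyte antigen CD45, had r = 0.443 with Birc5 and Cd3e -0.404, so the list had members in both directions. The 7 neutrophil genes had r between -0.120 and 0.105 with Birc5, short of a call. In animals above the split the macrophage calls were 7, 7 and 9 (9.73%, 10.0% and 9.16% of all probes), and in those below it 5, 3 and 8 (4.68%, 5.4% and 6.27%). The hepatocyte genes called negative were 3, 3 and 3 above the split (11.7%, 11.1% and 11.0% of all probes) and 0, 1 and 0 below it (3.35%, 4.18% and 6.24%). With Birc5, 1 of 8 endothelial genes was called positive and 1 of 5 erythroid genes negative over all arrays, where 5.77% and 3.89% of all probes were, and counts of 1 in lists this short say little. Bub1 again ran the other way: above the split it called 8 of the 12 macrophage genes negative (median r -0.335) and 4 of the 5 hepatocyte genes positive (0.360), and below it 1 macrophage gene negative (-0.0537) and 2 hepatocyte genes positive (0.268). Over all 59 marker genes Bub1 called 19 negative and 8 positive above the split, and 7 and 3 below it. Of all probes Bub1 called 9.99% negative and 12.1% positive above the split, and 3.25% and 5.36% below it. The counts above the split follow in part from the r of -0.537 between Birc5 and Bub1 there, so they are no separate result. The part of these cells in the shared variation of the members was not tested.

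The promoters of the closest genes held the CHR letters often. Among the 50 genes of highest r with Birc5 over all arrays, 37 had a RefSeq promoter and 56.8% of these held TTTGAA or TTCGAA on either strand. For Cdc20 the share was 57.9% of 38 and for Top2a 51.4% of 35, against 17.8% of 8541 measured genes and 19.2% of all 32851 promoters of the same length. For Mki67 it was 29.7% of 37, and for Bub1, above the split, 8.33% of 36. Holding one of those and CCAAT as well were 40.5% for Birc5, 39.5% for Cdc20 and 34.3% for Top2a, against 7.12% of measured genes. Over all genes called positive with Birc5 the CHR share was 22.4% of 635. The top genes were chosen for their r, so these shares are descriptions, and Birc5 itself shows that a gene can stand among them with no match in this window.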

How the data were processed

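Liver RNA of 311 mice was measured on 2-colour arrays, 1 per animal, against a common pool. The deposited values are log10 ratios, made by the authors and used as given. Neither base nor direction is stated for them in the sources used here. Both were derived: if a pool of all samples averages 1, the probe mean falls with the probe variance by -1.15 for log10 of sample over pool, and the slope was -1.42 over the 21920 probes without values at the limits, -1.37 over the 1000 widest and -0.848 over all kept probes. Log10 of pool over sample would give 1.15 and natural logs -0.5.

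Array medians lay between -0.0218 and 0.0172, and 0.745% of values were missing. Of 48205 pairs of arrays 131 had r under -0.3 (lowest -0.435, median 0.160). Of 23388 probes, 13645 named 1 gene through the platform annotation updated with RefSeq, 48 several and 9695 none here. A probe was kept if at least 95% of the animals had a value.

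Each kept probe was regressed on each member probe (limma 3.58.1 in R 4.3.3, Benjamini-Hochberg over 22862 probes). Pairs had two-sided permutation tests with 100000 resamples and 95% Fisher z intervals (Python 3.11.15, scipy 1.17.1). On data simulated for Birc5 over all arrays, 95% of 40 probes with a planted r of 0.4, and 2.5% of 40 with 0.2, were called.

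Named genes were taken, per leading probe, from the 5 of highest and 3 of lowest r over all arrays or on each side of the split (probes naming 1 gene, members left out), and per list the 2 highest and 1 lowest by mean r. Other genes named were chosen after their values were seen. The members and lists were chosen with earlier results of these data known, among them the tie of Birc5 and Cdc20 and the opposed Bub1, so these are no independent support. The title of 1 sample disagreed with its source name on the F2 number (263 and 262), and it was taken as 263. Descriptions in the labels mention 330 mice.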

Additional observations from a re-analysis of the deposited data

How the results depend on the processing

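Alternatives were centring each array, Spearman correlation, either range of F2 numbers, dropping the 10 arrays with the widest values, the side of the split as a covariate, probes measured on every array, another probe of the gene, and dropping the 2 most extreme animals. The covariate as the main setting for Bub1, and each side alone, were chosen after seeing the data. A pair was held to be the same if it kept its direction and its side of the adjusted p threshold. A count of called probes was held to be the same if its size stayed near that of the main setting. By these rules 107 values were the same, 8 pairs became weaker, 4 pairs changed sign and 8 counts moved. With the second Top2a probe r was 0.0173 for Birc5, and it changed sign for Cdc20 (-0.0841), Mki67 (-0.106) and Bub1 (0.0556). With Cdc20 probe 10024413904 the pair with Mki67 had 0.128, and with probe 10024409926 Bub1 and Cdc20 had 0.110. Above the median F2 number Mki67 had 0.129 with Top2a and -0.166 with Bub1, both short of the threshold. Below the split Bub1 had -0.142 with Birc5, -0.173 with Cdc20, -0.138 with Mki67 and -0.0266 with Top2a. The cause was not tested. Over the 12089 probes measured on every array, fewer by construction, calls numbered 1386 for Birc5, 1713 for Cdc20, 1718 for Top2a, 35 for Mki67 and 2109 for Bub1. Mki67 called 698 up to the median F2 number, against 177 over all arrays, and Bub1 5061 above the split and 1968 below it, against 3348 with the covariate. Of the genes named with Mki67, Olfr1423 (0.260 by rank), Olfr1250 (0.203) and Sult5a1 (-0.234, both above the median F2 number) fell short of a call. No paired analysis was possible because every animal had 1 array and no groups share replicate numbers. With ratios to a pool, signal over background is unknown, so a weak probe cannot be told from a quiet gene.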

Other observations

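Single livers showed how far the member probes can part. The animal with F2 number 175 had the highest value of Cdc20 probe 10024413904, 5.09-fold of the pool, with 1.16-fold on the leading Cdc20 probe and 1.05-fold on the other. The animal with F2 number 279 had the highest Bub1, 1.55-fold, with 0.655-fold Birc5. The animal with F2 number 349 had the highest Cdc20, 2.44-fold, with 1.81-fold Birc5, 1.43-fold Top2a and 1.02-fold Mki67. The animal with F2 number 46 had the lowest Birc5, 0.349-fold, with 0.342-fold Cdc20 and 0.660-fold Top2a, while its Mki67 was 0.954-fold and its Bub1 0.955-fold.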
